A study of Mus musculus with 6 samples.

Results

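The mitochondrial ribosomal protein genes were taken as every gene of the deposited single-cell table whose symbol starts with Mrpl or Mrps followed by a digit. They were 78 of the 16623 genes, 49 with an Mrpl and 29 with an Mrps symbol. The rule used names and no measured value, but the set was chosen with earlier results of these data known. Livers of 3 wild-type (WT) mice and 3 mice without SIRT7 (SIRT7 KO), all 5 to 6 months old, were measured by 10x Genomics Chromium 3′ single-cell RNA sequencing, in which each RNA molecule is counted once by its unique molecular identifier (UMI). Hepatocytes and nonparenchymal cells were isolated by collagenase perfusion and mixed in equal numbers before loading. No cell-type restriction of the SIRT7 deletion is stated, so no cell class serves as an internal control. The study used this genotype as a mouse model of spontaneous fatty liver disease, so loss of SIRT7 and disease of the liver cannot be told apart. Values are mean counts per 10000 UMIs of a cell (CP10K) over the cells of 1 mouse and class.

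The mitochondrial ribosome translates the few proteins encoded by mitochondrial DNA, all of them core subunits of the respiratory chain and of ATP synthase. Its RNAs come from mitochondrial DNA, while all of its proteins are encoded in the nucleus, made in the cytosol and imported. A part of these proteins has bacterial counterparts and the others belong to mitochondria alone. SIRT7, a deacetylase of chromatin and other proteins, has been described as a repressor of mitochondrial ribosomal protein genes that is brought to their promoters by NRF1, as a partner of Myc at cytosolic ribosomal protein genes, and as a deacetylase of GABPβ1, a subunit of the ETS factor GABP. The comparison asks whether these genes stood at another level in any liver cell class of the mice without SIRT7.

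Of the 78 genes, 30 encode large-subunit proteins with bacterial counterparts, 19 other large-subunit proteins with an Mrpl symbol, 15 small-subunit proteins with bacterial counterparts and 11 other small-subunit proteins. Mrps18a and Mrps30 carry a small-subunit symbol, but their products sit in the large subunit. Mrps36 encodes a protein that belongs to the 2-oxoglutarate dehydrogenase complex and not to the ribosome. The genes lie on 17 chromosomes, with 11 on chromosome 11, the chromosome of Sirt7. Of these 11, 4 start within 10 Mb of Sirt7, which lies at chr11:120618371-120625014 (RefSeq, GRCm38.p6). Mrpl12 is the nearest, at chr11:120484637-120488754, and Mrpl38, Mrps7 and Mrpl58 lie 4.49, 5.01 and 5.21 Mb before it. These positions matter because a gene close to a targeted locus is inherited with it.

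Promoter windows of RefSeq, 300 bases from 250 before to 50 after the annotated start, were given for 69 of the 78 genes. They were searched on both strands for letters bound by NRF1 (GCGCA and GCGC with any 1 base between them), by ETS factors such as GABP (CCGGAAGT), by Myc and other E-box factors (CACGTG) and by YY1 (AAGATGGCG). The NRF1 letters were in 13 of the 69 windows (18.8%), beside 9.93% of the 12109 windows of genes in the table. The ETS letters were in 12 (17.4%, beside 7.89%), those of YY1 in 8 (11.6%, beside 3.04%) and the E-box in 5 (7.25%, beside 10.9%). Mrps26 was the 1 member with both the NRF1 and the ETS letters. A match is a run of letters and not a measured binding site. The 5 stretches of 60 bases below are shown because the values of these genes recur in the results. They lie wholly before the annotated start, run 5′ to 3′ on the strand of the gene, and have the motif in capitals, which is NRF1 in the first pair (Mrpl12, read from the other strand, and Mrpl44) and ETS in Mrpl27, Mrpl51 and Mrps26, the last of them read from the other strand.

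Mrpl12, chr11:120484531-120484590, plus strand: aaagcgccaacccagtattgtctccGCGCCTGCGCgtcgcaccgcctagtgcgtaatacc
Mrpl44, chr1:79775958-79776017, plus strand: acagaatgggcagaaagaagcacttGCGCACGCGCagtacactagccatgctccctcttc
Mrpl27, chr11:94653710-94653769, plus strand: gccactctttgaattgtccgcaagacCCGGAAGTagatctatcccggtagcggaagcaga
Mrpl51, chr6:125192084-125192143, plus strand: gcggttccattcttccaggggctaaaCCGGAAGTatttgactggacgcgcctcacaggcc
Mrps26, chr2:130563697-130563756, plus strand: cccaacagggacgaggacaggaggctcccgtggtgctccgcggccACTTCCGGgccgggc

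The table held 11610 cells, with 2511947 to 11069411 UMIs per mouse. 13 barcodes occurred in more than 1 library. Clustering gave 10 clusters, of which 8 had at least 20 cells in at least 2 mice of each genotype. No mitochondrial ribosomal protein gene was among the 1000 variable genes that defined the clusters. Macrophage-like, hepatocyte-like, endothelial-like, plasma-like and B-like clusters were named from their markers. A cluster led by T and NK cell genes, one led by dendritic cell and basophil genes and one of hepatocytes led by hemoglobin RNA did not meet the naming rule and are called the Trbc2/Ncr1, the Siglech/Mcpt8 and the Hbb-bs/Cyp2c50 cluster after genes among their first 10. All 8 hepatocyte markers were detected in the Hbb-bs/Cyp2c50 cluster (1757 cells) as in hepatocyte-like cells (1189 cells), and 4 hemoglobin genes led the first of them. Periportal markers scored above pericentral ones in hepatocyte-like cells, and pericentral above periportal ones in the Hbb-bs/Cyp2c50 cluster.

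Sirt7 itself was lower in the SIRT7 KO mice but not at 0. Over all cells its level was 0.718, 0.512 and 0.546 CP10K in the WT mice and 0.10, 0.0814 and 0.139 CP10K in the SIRT7 KO mice. It passed the threshold in Trbc2/Ncr1 (log2 fold change -2.50, adjusted p = 0.00728), hepatocyte-like (-2.13, adjusted p = 0.0279) and macrophage-like cells (-2.41, adjusted p = 0.0326), by limma, with p-values adjusted by Benjamini-Hochberg across every gene tested in that class. Each of these calls was lost without single WT mice, with adjusted p up to 0.117 in Trbc2/Ncr1, 0.122 in hepatocyte-like and 0.131 in macrophage-like cells, and in macrophage-like cells it was 0.213 without KO mouse 3 and 0.375 with no filter on low genes. With cells classed by marker score it was 0.978 in hepatocyte-like cells. Sirt7 was lower in SIRT7 KO mice under all of these settings. In the Hbb-bs/Cyp2c50 cluster Sirt7 was lower without passing by limma (-2.61, adjusted p = 0.0619), on 52 UMIs in all. It did not pass in the Siglech/Mcpt8 cluster (-1.97, adjusted p = 0.158) or in endothelial-like (-1.88, adjusted p = 0.662) cells. The same held in plasma-like (-0.97, adjusted p = 0.814) and B-like cells (-2.27, adjusted p = 0.922). Whether the counted 3′ tags lie outside the deleted part is not given in the sources used here.

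The 78 genes together took 148351 UMIs, 0.529% of all. Single genes had between 27 (Mrpl53) and 6285 UMIs, with a median of 1569.5. As each molecule is tagged at its 3′ end, these counts carry no length term. The 5 genes with the highest mean CP10K over the 8 classes were Mrpl52, Mrpl12, Mrps24, Mrpl33 and Mrpl14, which made up 17.7% of the sum over the 78 genes. 20 genes had a mean over 1 CP10K, and Mrps27 and Mrpl53 had a mean under 0.1 CP10K.

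The Hbb-bs/Cyp2c50 cluster held the highest level of 61 of the 78 genes, and this held for subunits of both kinds. The share of all genes with their highest level in this cluster was not counted. The 61 genes are therefore not shown to be particular in this. Mrpl12, whose product is the counterpart of the bacterial stalk protein that takes up translation factors, stood at 5.11 CP10K there, at 1.25 CP10K in hepatocyte-like and in macrophage-like cells and at 0.511 CP10K in plasma-like cells. Mrpl14, a protein of the face that meets the small subunit, stood at 4.27 CP10K there and at 0.77 to 2.10 CP10K in the other classes. Some genes departed from this order. Mrpl33 was highest in the Siglech/Mcpt8 cluster (3.25 CP10K), Mrpl57 in plasma-like cells (2.15 CP10K) and Mrpl18 in hepatocyte-like cells, at 2.83 CP10K against 0.99 CP10K in the Hbb-bs/Cyp2c50 cluster. B-like cells were highest for 9 genes, but rest on 36690 to 89530 UMIs per mouse. These orders are descriptions, and no test between levels of classes was made.

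**Figure D1:**
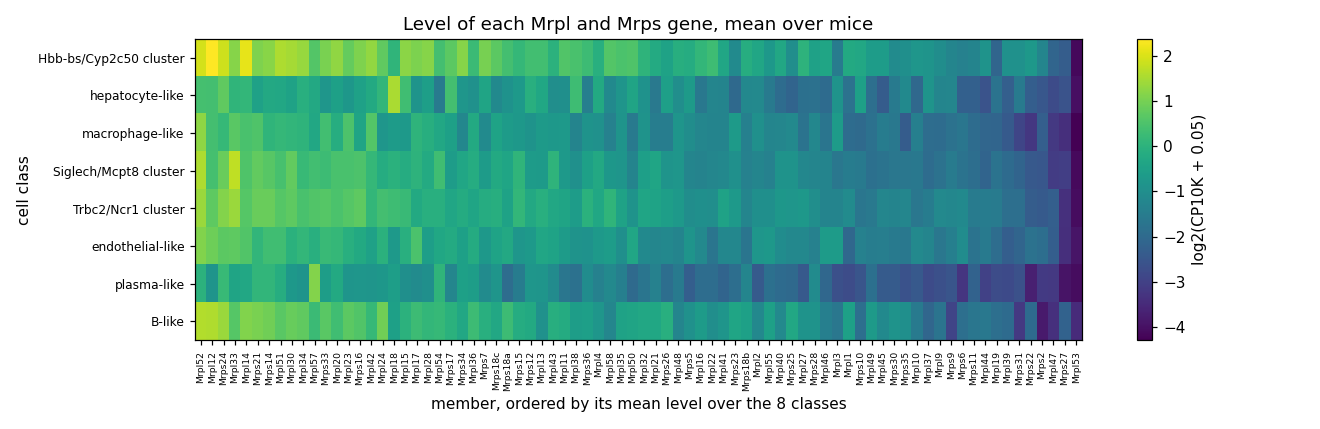
Each column is 1 of the 78 genes, ordered by its mean level over the classes, and each row is a cell class; colour gives log2(CP10K + 0.05) of the mean over mice. The row of the Hbb-bs/Cyp2c50 cluster is the brightest for 61 genes, and the departures of Mrpl33, Mrpl57 and Mrpl18 show as single bright cells in other rows.

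To compare the genotypes, a score was taken per mouse and class as the mean of log2(CP10K + 0.05) over the mitochondrial ribosomal protein genes, minus the mean over all genes tested. In the Hbb-bs/Cyp2c50 cluster the score was 1.46, 1.11 and 1.39 in the WT mice and 1.87, 1.68 and 1.69 in the SIRT7 KO mice. All 3 SIRT7 KO mice were above all 3 WT mice, and the means differed by 0.43 (WT 1.32 ± 0.18, SIRT7 KO 1.75 ± 0.11, SD, n = 3 each). The summed level of the members was 89.2 ± 10.5 CP10K in WT and 109 ± 9.03 CP10K in SIRT7 KO mice.

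In hepatocyte-like cells the score was 0.70, 0.37 and -0.18 in the WT mice and 0.06, 0.04 and -0.03 in the SIRT7 KO mice. The SIRT7 KO mice lay close together and inside the WT range, so the groups overlapped, with a difference of -0.27. The summed level was 44.3 ± 7.89 CP10K in WT and 40.9 ± 0.785 CP10K in SIRT7 KO mice. Without WT mouse 1 the difference in score was -0.07, and without WT mouse 3 it was -0.51. WT mouse 3 had 45 of these cells and no UMI for 10 members, and KO mouse 2 had 51 cells and none for 8. The part of these low counts in the scores was not tested.

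When the cells of both clusters were taken as 1 class, an alternative added after the data were seen, the score was 1.23, 1.11 and 0.85 in the WT mice and 1.16, 1.54 and 0.31 in the SIRT7 KO mice. The groups then overlapped widely, with a difference of -0.06. The share of the Hbb-bs/Cyp2c50 cluster in these cells differed from mouse to mouse, as KO mouse 3 had 65 cells there and 271 hepatocyte-like cells, while KO mouse 2 had 231 and 51. The part of this mixture in the combined value was not tested. The higher score thus held within the Hbb-bs/Cyp2c50 cluster and not over both clusters together.

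In the other 6 classes the score differed by 0.07 to 0.24. In macrophage-like cells it was 0.40, 0.21 and 0.14 in WT and 0.39, 0.32 and 0.43 in SIRT7 KO mice, which overlapped. In plasma-like cells, with 2 mice per genotype, it was 0.40 and 0.17 in WT and 0.59 and 0.46 in SIRT7 KO mice. The summed level of the members there was 24.6 ± 0.484 CP10K in WT and 34.4 ± 0.798 CP10K in SIRT7 KO mice (SD, n = 2 each), but all genes tested also had a median log2 fold change of 0.22, and when each cell was put in the class of its highest marker score the difference was -0.10. The differences were 0.07 in the Siglech/Mcpt8 cluster, 0.08 in the Trbc2/Ncr1 cluster, 0.08 in endothelial-like and 0.10 in B-like cells, each with groups that overlapped.

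**Figure D2:**
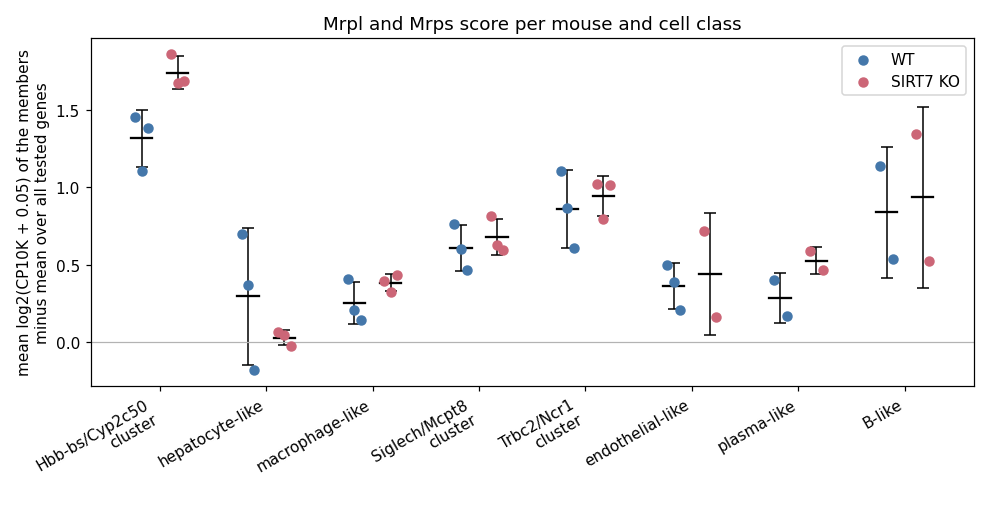
Each point is the score of 1 mouse in 1 cell class, in log2 units relative to all tested genes, with the mean as a bar and the SD as an error bar (2 or 3 mice per genotype). The SIRT7 KO mice lie above the WT mice in the Hbb-bs/Cyp2c50 cluster and in plasma-like cells, and between WT mice in hepatocyte-like cells.

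No single mitochondrial ribosomal protein gene passed an adjusted p of 0.05 in any of the 8 classes by limma. Over all genes tested 0.455% passed in the Hbb-bs/Cyp2c50 cluster, 0.244% in hepatocyte-like and 0.201% in macrophage-like cells. In the remaining classes the share was 0.041% in the Siglech/Mcpt8 cluster, 0.12% in the Trbc2/Ncr1 cluster, 0.282% in endothelial-like, 0.0781% in plasma-like and 0.0215% in B-like cells. The counts below are therefore given as descriptions, each beside the share of all genes that met the same condition.

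In the Hbb-bs/Cyp2c50 cluster 77 members were tested, all but Mrpl53, and 64 of them had a log2 fold change above 0 (83.1%, beside 45% of all genes). The median was 0.27 for the members and -0.08 for all 8568 genes tested. For 20 members every SIRT7 KO mouse was above every WT mouse (26%, beside 7.94% of all genes), and for 0 members every SIRT7 KO mouse was below (beside 9%). At an unadjusted p under 0.05, 10 members were higher (13%, beside 3.93%) and 0 lower (beside 6.69%).

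These genes came from both subunits. Of the proteins with bacterial counterparts, 25 of 30 of the large and 11 of 15 of the small subunit had a value above 0, with medians of 0.24 and 0.21. Of the other proteins, 16 of 18 of the large and 9 of 11 of the small subunit did, with medians of 0.45 and 0.39. The summed level of the 51 large-subunit genes over that of the 26 small-subunit genes was 2.28, 2.22 and 2.57 in the WT mice and 2.26, 2.41 and 2.44 in the SIRT7 KO mice, so the ratio of the subunits overlapped between the genotypes.

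Mrps18a, one of a family of proteins related to bacterial S18, had the smallest p in this cluster. Its level was 0.958, 0.692 and 0.874 CP10K in the WT mice and 1.55, 1.55 and 1.94 CP10K in the SIRT7 KO mice, with no overlap. The log2 fold change was 0.96 (SE 0.32, adjusted p = 0.243). The related Mrps18c stood at 1.61, 1.06 and 1.34 CP10K in WT and 1.81, 1.64 and 1.94 CP10K in SIRT7 KO mice, again with no overlap (0.43, adjusted p = 0.633). The related Mrps18b stood at 0.683, 0.609 and 1.46 CP10K in WT and 0.716, 0.617 and 1.01 CP10K in SIRT7 KO mice, with overlapping groups and a log2 fold change of -0.14 that turned above 0 on summed UMIs. The groups of the family thus separated for Mrps18a and Mrps18c.

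The 3 members with the largest log2 fold change in this cluster were Mrps26, Mrpl21 and Mrpl46. Mrps26, a small-subunit protein of mitochondria alone and the bearer of the last of the stretches printed above, was at 0.523, 0.481 and 0.258 CP10K in WT and 0.889, 0.864 and 1.06 CP10K in SIRT7 KO mice (1.12, SE 0.39, adjusted p = 0.28). Mrpl21, a large-subunit protein with a bacterial counterpart, was at 0.686, 0.422 and 0.456 CP10K in WT and 1.24, 1.08 and 0.933 CP10K in SIRT7 KO mice (1.01, SE 0.37, adjusted p = 0.305). Mrpl46, a large-subunit protein of mitochondria alone, was at 0.576, 0.558 and 0.302 CP10K in WT and 0.848, 1.07 and 0.94 CP10K in SIRT7 KO mice (0.96, SE 0.39, adjusted p = 0.356). The genotypes did not overlap for any of these genes. The counts behind WT mouse 3 were low, between 2 and 6 UMIs for each of these 3 genes and Mrps18a.

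At the other end, among members with a mean of at least 0.5 CP10K, lay Mrpl33 (-0.24), Mrpl28 (-0.23) and Mrps15 (-0.18), with adjusted p from 0.8 to 0.879 and overlapping groups. Mrpl33 stood at 2.84, 1.45 and 2.92 CP10K in WT and 1.94, 2.19 and 1.71 CP10K in SIRT7 KO mice. The lowest value of all members tested was that of Mrpl9 (-0.46, adjusted p = 0.776), a low gene with overlapping groups that was singled out after its values were seen. The log2 fold changes of Mrpl33, Mrpl28 and Mrps15 turned above 0 with limma voom on summed UMIs. With voom Mrps18a (1.02, SE 0.28, adjusted p = 0.0278) and Mrpl21 (1.12, adjusted p = 0.0287) passed the threshold, 2 of 77 members (2.6%), beside 501 of all genes (5.85%), where 39 genes had passed with limma on log2 levels.

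Marker levels also differed between the mice of this cluster. The 8 hepatocyte markers summed to 632, 714 and 416 CP10K in the WT mice and 415, 264 and 384 CP10K in the SIRT7 KO mice. Every SIRT7 KO mouse was thus below every WT mouse, though KO mouse 1 was close to WT mouse 3. The 6 erythroid markers summed to 104 CP10K in WT mouse 1 and 6.34 CP10K in KO mouse 1, and to between 0 and 0.303 CP10K in the other mice of both genotypes. The part of the hepatocyte markers in the higher score was not tested. Without the cells that held hemoglobin UMIs the score difference was 0.42, and the part of hemoglobin RNA in the score was not tested.

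In hepatocyte-like cells 35 of 77 members had a log2 fold change above 0 (45.5%, beside 60.2% of all genes), and the median was -0.09 for the members and 0.18 for all 10256 genes. For 8 members every SIRT7 KO mouse was below every WT mouse (10.4%, beside 3.99%) and for 2 every SIRT7 KO mouse was above (2.6%, beside 12.6%). At an unadjusted p under 0.05, 2 members were lower (2.6%, beside 2.65%) and 1 higher (1.3%, beside 7.32%).

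Mrpl14 had the smallest p, at 1.44, 1.80 and 1.13 CP10K in WT and 0.925, 0.311 and 0.586 CP10K in SIRT7 KO mice (-1.29, SE 0.43, adjusted p = 0.289). Mrps14, a small-subunit protein with a bacterial counterpart, was at 1.11, 0.881 and 1.10 CP10K in WT and 0.615, 0.307 and 0.634 CP10K in SIRT7 KO mice (-0.98, SE 0.43, adjusted p = 0.438). In both the genotypes did not overlap, and KO mouse 2, the lowest, had 3 UMIs of either gene. Mrpl51, whose promoter stretch with the ETS letters is printed above, was at 1.34, 0.765 and 0.743 CP10K in WT and 0.825, 0.237 and 0.653 CP10K in SIRT7 KO mice, with overlap (-0.78, adjusted p = 0.594).

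Mrpl38, a large-subunit protein of mitochondria alone and one of the genes near Sirt7, went the other way, at 0.993, 0.867 and 0.475 CP10K in WT and 1.18, 2.03 and 1.49 CP10K in SIRT7 KO mice (0.99, SE 0.41, adjusted p = 0.421, no overlap). Mrps26 (1.02, SE 1.19, adjusted p = 0.815) was at 0.696, 1.12 and 0 CP10K in WT and 0.612, 0.504 and 0.952 CP10K in SIRT7 KO mice, so its value rests on WT mouse 3, in which no UMI was counted. Mrpl50 (0.77, adjusted p = 0.594) overlapped between the genotypes.

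In these cells the 8 hepatocyte markers summed to 529, 379 and 251 CP10K in WT and 210, 125 and 287 CP10K in SIRT7 KO mice. The 8 neutrophil markers summed to between 0 and 0.156 CP10K in WT mice and to 13.1, 7.46 and 0.268 CP10K in SIRT7 KO mice. Their part in the values of the members was not tested.

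The 2 hepatocyte clusters were compared with each other by fitting, within each mouse, the difference between them. No gene of 8238 passed the threshold, and 77 members were tested. Of these, 58 had a lower genotype change in hepatocyte-like cells (75.3%, beside 40% of all genes), with a median difference of -0.43 for the members and 0.25 for all genes. With an unadjusted p under 0.05, 8 members were lower (10.4%, beside 3.06%) and 0 higher (beside 8.3%). The smallest p was that of Mrpl58 (-1.47, SE 0.45, adjusted p = 0.398), which encodes a peptidyl-tRNA hydrolase of the large subunit that frees stalled ribosomes. Mrpl58 stood at 1.09, 0.811 and 1.55 CP10K in WT and 1.55, 1.63 and 2.06 CP10K in SIRT7 KO mice in the Hbb-bs/Cyp2c50 cluster. In hepatocyte-like cells it stood at 0.525, 0.627 and 0.458 CP10K in WT and 0.312, 0.228 and 0.289 CP10K in SIRT7 KO mice, so the directions were opposite. The margin in the Hbb-bs/Cyp2c50 cluster was narrow, with WT mouse 3 at 1.546 CP10K (11 UMIs) and KO mouse 1 at 1.551 CP10K. Between hepatocyte-like and macrophage-like cells 0 of 8700 genes passed, and 44 of 76 members had the lower change in hepatocyte-like cells (57.9%, beside 38.1%). At an unadjusted p under 0.05, 1 member was lower (1.32%, beside 1.55%) and 0 higher (beside 7.07%), and the smallest adjusted p was 0.503 (Mrpl27, -1.86).

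**Figure D3:**
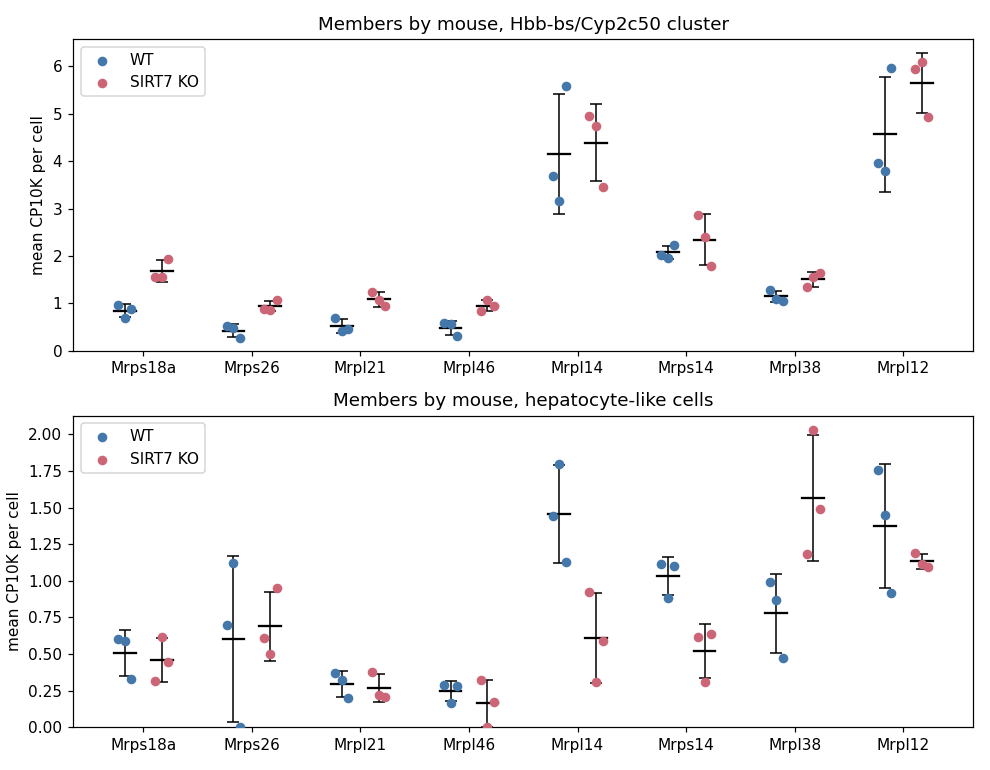
Each point is the mean CP10K of 1 gene in 1 mouse (3 per genotype), with the mean as a bar and the SD as an error bar, for 8 members in the Hbb-bs/Cyp2c50 cluster (top) and in hepatocyte-like cells (bottom). Mrps18a, Mrps26, Mrpl21 and Mrpl46 are higher in every SIRT7 KO mouse in the first, and Mrpl14 and Mrps14 are lower in every SIRT7 KO mouse in the second.

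In macrophage-like cells 49 of 76 members had a log2 fold change above 0 (64.5%, beside 47.3%). The cells per mouse were uneven, at 55, 46 and 243 in the WT mice and 2648, 633 and 84 in the SIRT7 KO mice. For 4 members every SIRT7 KO mouse was above and for 4 every one was below every WT mouse (5.26% each, beside 7.21% and 9.85% of all genes). At an unadjusted p under 0.05, 2 members were higher (2.63%, beside 3.9%) and 3 lower (3.95%, beside 6.7%). The summed level was 43.7 ± 3.26 CP10K in WT and 42.9 ± 1.92 CP10K in SIRT7 KO mice. Mrpl12 lay lowest among members with a mean of at least 0.5 CP10K, at 2.12, 1.75 and 0.93 CP10K in WT and 0.972, 0.832 and 0.884 CP10K in SIRT7 KO mice (-0.73, SE 0.29, adjusted p = 0.393), where WT mouse 3 fell among the SIRT7 KO mice. The 8 hepatocyte markers in the same macrophage-like cells summed to 130, 104 and 50.2 CP10K in the WT mice and 54.6, 12.1 and 60.2 CP10K in the SIRT7 KO mice. WT mice 1 and 2 were the highest for both, and the part of hepatocyte RNA in the Mrpl12 values was not tested.

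Mrpl14 (-0.49, adjusted p = 0.53) and Mrpl52 (-0.47, adjusted p = 0.457) followed Mrpl12 among these better detected members, and Mrps36 (0.69, adjusted p = 0.578), Mrps15 (0.54, adjusted p = 0.635) and Mrpl20 (0.49, adjusted p = 0.554) were the highest of them, all with overlap. The smallest p in macrophage-like cells was that of Mrpl44, a low gene that was singled out after its values were seen. It stood at 0.042, 0.0506 and 0.137 CP10K in WT and 0.237, 0.331 and 0.299 CP10K in SIRT7 KO mice, without overlap (1.49, SE 0.42, adjusted p = 0.213), with 2, 1 and 9 UMIs behind the WT values. Mrpl27, singled out in the same way, stood at 0.145, 0.146 and 0.178 CP10K in WT and 0.335, 0.274 and 0.399 CP10K in SIRT7 KO mice (0.89, SE 0.34, adjusted p = 0.37).

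In the Siglech/Mcpt8 cluster 40 of 77 members were above 0 (51.9%, beside 45.4%). For 2 members every SIRT7 KO mouse was above (2.6%, beside 4%) and for 1 below every WT mouse (1.3%, beside 7.03%), and at an unadjusted p under 0.05 there were 0 higher (beside 2.02%) and 1 lower (1.3%, beside 4.07%). Members with a mean of at least 0.5 CP10K ranged from Mrps15 (-0.34), Mrpl48 (-0.33) and Mrpl35 (-0.27) to Mrps12 (0.36), Mrpl20 (0.40) and Mrpl28 (0.41), all with overlap. In the Trbc2/Ncr1 cluster 40 of 76 were above 0 (52.6%, beside 44.4%). For 7 members every SIRT7 KO mouse was above (9.21%, beside 5.36%) and for 3 below every WT mouse (3.95%, beside 6.23%), and at an unadjusted p under 0.05 there were 0 in either direction (beside 3.02% higher and 4.24% lower). Mrpl20, a large-subunit protein with a bacterial counterpart, was at 1.15, 1.15 and 1.20 CP10K in WT and 1.54, 1.56 and 1.52 CP10K in SIRT7 KO mice there, without overlap (0.38, SE 0.24, adjusted p = 0.788). The others named by size were Mrps36 (0.99), Mrps15 (0.36), Mrpl32 (-0.29), Mrpl15 (-0.30) and Mrpl14 (-0.44), all with overlap.

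In endothelial-like cells, with 2 SIRT7 KO mice, 42 of 76 members were above 0 (55.3%, beside 46.9%). Both SIRT7 KO mice were above every WT mouse for 6 members (7.89%, beside 9.49%) and below for 4 (5.26%, beside 12.7%), and at an unadjusted p under 0.05, 1 was higher (1.32%, beside 2.64%) and 1 lower (1.32%, beside 4.66%). Mrpl2, a protein of the core of the large subunit, was at 0.893, 0.704 and 0.552 CP10K in WT and 0.406 and 0.08 CP10K in SIRT7 KO mice (-1.63, SE 0.58, adjusted p = 0.44). Without KO mouse 1, which leaves 1 mouse that is assumed to vary like the WT mice, Mrpl2 (-2.54, adjusted p = 0.0236) and Mrps21 (-2.12, adjusted p = 0.0197) passed the threshold, 2 of 77 members (2.6%) beside 272 of all genes (2.56%), which is near the background. Mrpl28 (0.83) was higher in both SIRT7 KO mice than in every WT mouse, and Mrpl34 (-0.86), Mrpl55 (0.81) and Mrpl43 (0.99) overlapped.

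In plasma-like cells 60 of 75 members were above 0 (80%, beside 64.8%), and for 35 both SIRT7 KO mice were above both WT mice (46.7%, beside 25.9%) and for 3 below (4%, beside 10.8%). At an unadjusted p under 0.05, 7 were higher (9.33%, beside 4.63%) and 0 lower (beside 1.9%). Mrps16 was at 0.195 and 0.32 CP10K in WT and 1.02 and 0.577 CP10K in SIRT7 KO mice (1.45, SE 0.47, adjusted p = 0.545). Mrpl55, a low gene singled out after its values were seen, had the smallest p in plasma-like cells, at 0.0364 and 0.0609 CP10K in WT and 0.439 and 0.385 CP10K in SIRT7 KO mice (2.24, SE 0.55, adjusted p = 0.246), with 1 and 4 UMIs behind the WT values. Mrpl33 (1.20, adjusted p = 0.609) and Mrps18c (0.99, adjusted p = 0.743) also separated, and Mrpl24 (-0.26), Mrpl12 (-0.16) and Mrpl54 (-0.11) did not. Without WT mouse 3, which leaves WT mouse 2 with its 20 cells, 9 of 74 members passed the threshold (12.2%), 8 of them higher, beside 913 of all genes (12.1%), which is near the background. With all 4 mice 0 members passed. In B-like cells 46 of 75 members were above 0 (61.3%, beside 52.7%) and 10 members separated in either direction (13.3% each, beside 15.7% above and 13% below). With an unadjusted p under 0.05, 5 were higher (6.67%, beside 1.85%) and 0 lower (beside 1.8%). The named members of B-like cells ranged from Mrpl38 (-2.15), Mrps24 (-1.15) and Mrps7 (-1.10) to Mrpl11 (2.10), Mrpl1 (2.26) and Mrps36 (2.91), with an adjusted p of 0.922 each. Mrpl38, Mrpl1, Mrps36 and Mrpl11 had no UMI in 1 B-like mouse, and their fitted values depend on the added constant.

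**Figure D4:**
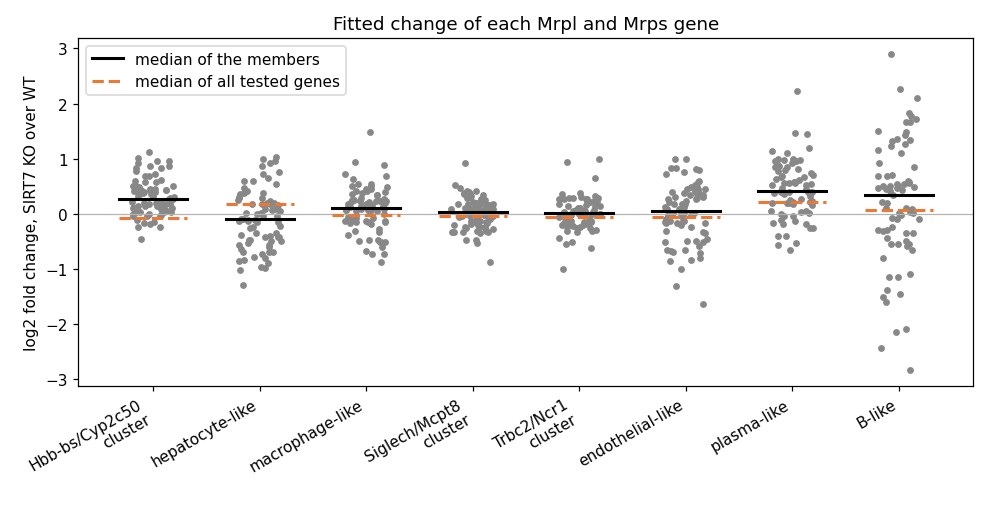
Each grey point is the log2 fold change (SIRT7 KO over WT, with 0.05 CP10K added) of 1 member in 1 class, with the median of the members as a solid bar and that of all tested genes as a dashed bar. The members' median lies above that of all genes by 0.36 in the Hbb-bs/Cyp2c50 cluster and below it by 0.28 in hepatocyte-like cells.

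The 4 genes near Sirt7 were all above 0 in the Hbb-bs/Cyp2c50 cluster, with log2 fold changes of 0.33 for Mrpl12, 0.38 for Mrpl38, 0.43 for Mrps7 and 0.62 for Mrpl58, and all stayed above 0 without any 1 mouse. None had an adjusted p under 0.502, and 83.1% of the members tested were above 0 there. In hepatocyte-like cells Mrpl38 alone of them was above 0. Mrpl12 was at 3.96, 3.79 and 5.97 CP10K in WT and 5.95, 6.08 and 4.94 CP10K in SIRT7 KO mice in the Hbb-bs/Cyp2c50 cluster, with overlap (0.33, adjusted p = 0.654). Among hepatocyte-like cells Mrpl12 was at 1.75, 1.45 and 0.917 CP10K in WT and 1.19, 1.11 and 1.10 CP10K in SIRT7 KO mice, again with overlap (-0.22, adjusted p = 0.876). Mrps7, a protein of the head of the small subunit, had a log2 fold change of -0.25 in hepatocyte-like cells, where Mrpl58 had -0.85 and Mrpl38 0.99. In macrophage-like cells Mrps7 (-0.18), Mrpl58 (0.45) and Mrpl38 (0.06) all overlapped. Of the genes with an irregular symbol, Mrps30 had 0.09 and Mrps36 had 0.14 in the Hbb-bs/Cyp2c50 cluster, and -0.69 and -0.11 in hepatocyte-like cells, with an adjusted p from 0.726 to 0.967. In hepatocyte-like cells Mrps18a (-0.13), Mrps18b (0.36) and Mrps18c (-0.05) overlapped between the genotypes, as they did in macrophage-like cells (0.12, 0.26 and -0.16), where Mrps30 had 0.35.

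The members were also split by the promoter letters. Within the Hbb-bs/Cyp2c50 cluster the 13 members with the NRF1 letters had a median log2 fold change of 0.15 and the 55 without them 0.27. For the ETS letters the medians were 0.40 (12 members) and 0.21 (56 members), and for YY1 0.64 (8 members) and 0.21 (60 members). In hepatocyte-like cells they were -0.22 and -0.11 for NRF1, 0.18 and -0.14 for ETS and -0.07 and -0.12 for YY1. The ranges of the groups overlap, and no test was made.

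Among 11 genes fixed as regulators, Sirt7 alone passed the threshold in any class. Nrf1 was at 0.148, 0.0723 and 0.186 CP10K in WT and 0.178, 0.138 and 0.0584 CP10K in SIRT7 KO mice in the Hbb-bs/Cyp2c50 cluster, which overlapped (-0.10, adjusted p = 0.966), and had 0.50 (adjusted p = 0.8) in hepatocyte-like cells. Gabpa, the DNA-binding subunit of GABP, was at 0.208, 0.308 and 0.665 CP10K in WT and 0.181, 0.0877 and 0.0248 CP10K in SIRT7 KO mice in the Hbb-bs/Cyp2c50 cluster, without overlap (-1.60, SE 0.59, adjusted p = 0.319). These values rest on 59 UMIs in all, and Gabpa had 0.56 (adjusted p = 0.752) in hepatocyte-like cells, with overlap. Gabpb2, a partner subunit, was at 0.238, 0.599 and 0.463 CP10K in WT and 1.30, 2.87 and 0.712 CP10K in SIRT7 KO mice in hepatocyte-like cells, without overlap (1.66, SE 0.48, adjusted p = 0.186). In the Hbb-bs/Cyp2c50 cluster Gabpb2 had -0.34 (adjusted p = 0.889), with overlap. Myc was under the minimum level in the first cluster and had -0.29 (adjusted p = 0.9) in hepatocyte-like cells. Yy1 had -0.65 and 0.31, Esrra -0.19 and 0.48, Ppargc1a 0.21 and 0.46 and Pprc1 0.29 and 0.59 in the Hbb-bs/Cyp2c50 cluster and in hepatocyte-like cells, and Gabpb1 had -0.15 and -0.10. Ppargc1b was measured in hepatocyte-like cells alone of these 2 (1.45, adjusted p = 0.522).

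Other genes of mitochondrial translation gave 0 calls in every class by limma. In the Hbb-bs/Cyp2c50 cluster, where all genes had a median of -0.08, the medians were 0.11 for 5 mitochondrial ribosome proteins with other symbols (Aurkaip1 0.61, Chchd1 0.29), 0.12 for 21 genes of ribosome assembly and rRNA modification, 0.00 for 15 translation factors and -0.02 for 15 aminoacyl-tRNA synthetases (Tars2 -0.83, Mars2 -0.77). Malsu1, an assembly factor that binds the product of Mrpl14 and keeps the subunits apart, had 1.45 (adjusted p = 0.331), Mterf4 1.43, and of the translation factors the release factors Mtrf1 and Mtrf1l had 1.26 and -1.09. For 7 genes of mitochondrial DNA transcription and maintenance the median was -0.36 (Polg -0.64, Tfam -0.50), and for 11 of protein quality control -0.14 (Spg7 -0.98, Clpp 0.71). The medians were also taken minus that of all genes, with 1 mouse left out. They stayed above 0 for proteins with other symbols (0.05 to 0.29) and assembly (0.02 to 0.44). They changed sign for translation factors (-0.07 to 0.23), synthetases (-0.26 to 0.28), transcription and maintenance (-0.35 to 0.23) and quality control (-0.13 to 0.04).

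In hepatocyte-like cells all genes had a median of 0.18, and 60.2% of them were above 0. There 14 of 15 translation factors were above 0, with a median of 0.37 (Gfm1 1.13, Slirp 0.98), while the 5 ribosome proteins with other symbols had -0.29 (Gadd45gip1 -0.76, Dap3 0.61). Ribosome assembly had a median of 0.23 (Rcc1l 1.91, adjusted p = 0.302, and Malsu1 0.92), aminoacyl-tRNA synthetases 0.04 (Wars2 1.27, Mars2 -1.26), transcription and maintenance 0.24 (Mterf1a -1.01, Polrmt -0.92) and quality control 0.14 (Dnaja3 -0.97, Htra2 0.79). With 1 mouse left out, medians minus that of all genes kept their sign for translation factors (0.04 to 0.47) and proteins with other symbols (-0.72 to -0.40). They changed sign for assembly (-0.09 to 0.38), synthetases (-0.27 to 0.04), transcription and maintenance (-0.23 to 0.27) and quality control (-0.22 to 0.21). In macrophage-like cells, where all genes had -0.03, the medians were -0.28, -0.27, -0.10, 0.01, -0.31 and -0.34 for ribosome proteins with other symbols (Chchd1 0.74, Dap3 -0.71), translation factors (Slirp 1.06, Oxa1l 0.68), assembly (Gtpbp10 -0.80, Trub2 -0.68), synthetases (Lars2 1.34, Sars2 -0.73), transcription and maintenance (Twnk -1.37, Tfam -0.86) and quality control (Spg7 -0.93, Clpx -0.83). Taken in the same way, medians there stayed below 0 for translation factors (-0.27 to -0.03), transcription and maintenance (-0.49 to -0.01) and quality control (-0.70 to -0.15). They changed sign for proteins with other symbols (-0.35 to 0.18), assembly (-0.17 to 0.0006) and synthetases (-0.28 to 0.22).

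The 13 proteins that the mitochondrial ribosome makes are encoded by mitochondrial DNA. Their RNAs had a median of 0.04 in the Hbb-bs/Cyp2c50 cluster (mt-Co1 -0.56, mt-Nd4 -0.44), of 0.36 in hepatocyte-like cells (mt-Atp8 1.48, adjusted p = 0.438, and mt-Nd6 1.17), and of 0.14 in macrophage-like cells (mt-Atp8 0.79, and mt-Nd3 -0.67, adjusted p = 0.202). In hepatocyte-like cells 12 of 13 were above 0, beside 60.2% of all genes. With 1 mouse left out, their median minus that of all genes ran from -0.05 to 0.40 there. It ran from -0.09 to 0.41 in the Hbb-bs/Cyp2c50 cluster and from 0.07 to 0.23 in macrophage-like cells. Cells with more than 5% mitochondrial genes were removed by the authors, which caps these RNAs in every cell.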

How the data were processed

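The authors deposited 1 value per cell and gene, the natural log of counts per 10000 plus 1. By the study's methods and processing notes, reads were aligned to mm10 with Cell Ranger 6.0.0, and cells under 500 genes or over 5% mitochondrial genes were removed. Every one of the 16623 gene columns was read, and those that passed the filter on low genes given below entered the fits. From the values whole UMIs were recovered, as 12961041 of 12961041 above 0 were whole within 0.02. Barcode endings gave the mouse, and replicates were not pooled.

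Cells were clustered with scanpy 1.11.5 (1000 variable genes, 50 principal components, 3 neighbors per mouse, leidenalg 0.10.2 at a resolution of 0.35). Scrublet marked 46 cells (0.396%), too few to serve as a doublet filter, so no cell was removed. For each class and mouse with at least 20 cells, log2 of the mean CP10K plus 0.05 was fitted with limma 3.58.1 (R 4.3.3, two-sided, trend and robust), keeping genes whose mean reached 0.05 CP10K, and p-values were adjusted by Benjamini-Hochberg across the class with a threshold of 0.05. The added constant understates changes of low genes. The fits were also run on simulated data with normal noise and 200 changed genes, all with a mean log2 level above 0. Recovery of changes in members below that level was not measured.

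The members and gene lists were chosen with earlier results of these data known. The named genes were Sirt7, members past the threshold, the 3 members with the largest change in each direction per class at 0.5 CP10K or more, the 5 highest members, members within 10 Mb of Sirt7, the Mrps18 family, Mrps30, Mrps36, the regulators and at most 2 of each other list. Same-numbered mice did not deviate together (correlations from -0.135 to 0.0872), so replicate numbers were not taken as pairs. Alternatives changed the pseudocount, the filter, the summary per mouse, the test (limma voom), the reference, the classes, the cells kept, the replicate block and the mice left out.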

Additional observations from a re-analysis of the deposited data

Results flagged for a closer look

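The change of the score pointed in opposite directions between classes, flagged where all SIRT7 KO mice of a class lay on 1 side of the WT mean. It was not tested as a difference of scores. In hepatocyte-like cells the SIRT7 KO mice lay inside the WT range, and without WT mouse 1 the difference there was -0.07. Macrophage-like cells overlapped between the genotypes as well. All 3 SIRT7 KO mice lay below the WT mean in hepatocyte-like cells and above it in the Hbb-bs/Cyp2c50 cluster, where the score difference was larger by 0.695. The same held against macrophage-like cells, with a score difference of hepatocyte-like cells that was lower by -0.399, and against plasma-like cells, lower by -0.51. For single genes the difference between the hepatocyte clusters was tested, and 0 of 8238 genes passed the threshold by limma.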

How the results depend on the processing

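With 2 or 3 mice per genotype the depth limits single members, as several values rest on under 10 UMIs in a mouse. The score difference in the Hbb-bs/Cyp2c50 cluster was 0.25 with a pseudocount of 0.5, 0.59 with limma voom and -0.062 with both hepatocyte clusters combined. It was 0.26 in macrophage-like cells with voom, and -0.10 in plasma-like cells with cells classed by marker score. The cause was not tested. The scores moved by less than 1 SD between mice under 125 alternatives and by more under 7. In some classes, B-like cells among them, this SD was larger than the score difference. A move below it could thus still turn the direction there. Leaving out 1 mouse gave score differences of 0.33 to 0.50 in the Hbb-bs/Cyp2c50 cluster, -0.51 to -0.07 in hepatocyte-like, 0.08 to 0.21 in macrophage-like, 0.00 to 0.15 in Siglech/Mcpt8, -0.05 to 0.20 in Trbc2/Ncr1, -0.22 to 0.34 in endothelial-like, 0.14 to 0.35 in plasma-like and -0.35 to 0.47 in B-like cells. Members past the threshold stayed at 0, except 2 in the Hbb-bs/Cyp2c50 cluster with voom (2.6%, beside 5.85% of all genes), 2 in endothelial-like cells without KO mouse 1 (2.6%, beside 2.56%) and 9 in plasma-like cells without WT mouse 3 (12.2%, beside 12.1%). The replicate block left the members past the threshold at 0, while the genes past it went from 39 to 2 in the Hbb-bs/Cyp2c50 cluster, 25 to 58 in hepatocyte-like, 20 to 139 in macrophage-like, 4 to 68 in Siglech/Mcpt8 and 30 to 92 in endothelial-like cells. No paired analysis was possible in plasma-like and B-like cells because the genotypes share 1 replicate number there.

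These log2 fold changes of single members turned. The Hbb-bs/Cyp2c50 cluster had Mrps15 (0.013) and Mrps18b (0.22) on summed UMIs, Mrpl28 (0.10), Mrpl33 (0.048), Mrps15 (0.055) and Mrps18b (0.30) with voom, Mrpl28 (0.056), Mrps15 (0.18), Mrps18b (0.085) and Mrps30 (-0.20) by marker score, and Mrps30 (-0.043) without the top 5% of cells by UMIs. In hepatocyte-like cells they were Mrps36 at a pseudocount of 0.01 (0.061), without Scrublet doublets (0.12) and without the top 5% (0.030), Mrps18c without the top 5% (0.64), Mrps18a on summed UMIs (0.063), and Mrpl51 (0.091), Mrps18a (0.39), Mrps18b (-0.46) and Mrps7 (0.079) by marker score. In macrophage-like cells they were Mrpl38 at a pseudocount of 0.5 (-0.028), on summed UMIs (-0.38), with voom (-0.60) and by marker score (-0.081), and Mrps18c on summed UMIs (0.13), with voom (0.16) and by marker score (0.30). Mrpl35 gave 0.045 with voom in the Siglech/Mcpt8 cluster. In plasma-like cells Mrpl24 gave 0.42 and Mrpl54 0.023 on summed UMIs, and 0.45 and 0.042 with voom.

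Leaving out 1 mouse turned the direction of further members. The ranges in the Hbb-bs/Cyp2c50 cluster were Mrps30 (-0.10 to 0.37), Mrpl28 (-0.45 to 0.18), Mrps18b (-0.37 to 0.23) and Mrps15 (-0.41 to 0.032). In hepatocyte-like cells the ranges were Mrps18a (-0.39 to 0.087), Mrps18c (-0.59 to 0.28), Mrps36 (-1.08 to 0.52), Mrps7 (-0.70 to 0.046), Mrps18b (-0.20 to 1.08) and Mrps26 (-0.38 to 1.89). In macrophage-like cells the ranges were Mrpl38 (-0.50 to 0.51), Mrps18b (-0.32 to 0.84), Mrpl58 (-0.24 to 0.98), Mrps18c (-0.33 to 0.13), Mrps7 (-0.68 to 0.28) and Mrps18a (-0.18 to 0.37). For Mrpl35 in the Siglech/Mcpt8 cluster the range was -0.60 to 0.094. In endothelial-like cells the ranges were Mrpl34 (-1.74 to 0.018) and Mrps21 (-2.12 to 0.12). In plasma-like cells the ranges were Mrpl24 (-0.78 to 0.26), Mrpl54 (-0.46 to 0.24) and Mrpl12 (-0.48 to 0.15). For Mrpl11 in B-like cells the range was -0.21 to 4.40.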
